A study of Arabidopsis thaliana with 7 samples.

Results

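The Col-LUC wild-type seedlings of Arabidopsis thaliana were represented by 4 of the 7 arrays of the series, chosen as the samples whose titles name Col-LUC wild type. Every probe set other than the array's own controls was described, 22746 in all, by its mean log2 signal and its standard deviation (SD) over the 4 arrays. The series as a whole concerns sta1, a mutant of a nuclear protein needed for splicing. The sta1 and C24-LUC arrays were not used here. Col-LUC plants carry the Columbia genetic background and a luciferase (LUC) reporter, whose promoter the labels do not name. Per the labels, the plants were untreated seedlings aged 2 weeks, raised at 22 °C on MS plates that held 3% sucrose, with days of 16 h light and nights of 8 h. The labels do not say that the replicates were separate cultures, so the spread between arrays may be technical.

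A transcript profile of a young green seedling joins the profiles of cotyledons, leaves, hypocotyl and root in 1 extract. Photosynthesis genes, encoded partly in the nucleus and partly in the plastid, dominate such tissue. Genes of seed storage, pollen and floral organs belong to stages that a seedling has left or not yet reached. Other genes follow the conditions of the day: the cold and drought genes, many of which respond to the hormone abscisic acid (ABA), the anthocyanin genes that colour stressed leaves, and the defensins that respond to jasmonate and ethylene. In whole-seedling RNA, fewer cells of a type and less RNA per cell cannot be told apart.

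The array records did not match the labels in every respect. The scanner header of Col-LUC 2 carries a comment that names wild type together with other plant lines and an ABA treatment, whereas its title gives no treatment. The headers of Col-LUC 1, 2 and 3 record 3 different chip lots and 3 different hybridisation days, and the header of Col-LUC 4 is empty. Lot, day and replicate therefore cannot be told apart. For the gene lists that lead on Col-LUC 2, values without that array stand beside the others. Counts of the highest array without Col-LUC 2 rest on Col-LUC 1, 3 and 4 alone. No share over all probe sets was taken for those counts, and the shares over 4 arrays do not apply to them. A control probe set for 25S ribosomal RNA also stood highest on Col-LUC 2, at 238.6, 1987.2, 109.4 and 127.4 on Col-LUC 1 to 4.

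The authors' scaling set the overall level of the 4 arrays equal. Median signals were 211.3, 210.8, 208.6 and 207.8 on Col-LUC 1 to 4, and a signal of 100 was reached by 63.87% to 64.75% of the probe sets. Of the 22746 probe sets, 4006 (17.6%) lay under a signal of 50 on all 4 arrays and are called silent here, since values under this floor have no order. A further 2760 (12.1%) lay under the floor on 1 to 3 arrays. At the other end 2721 (12%) reached 1000 on all 4 arrays, 378 (1.66%) reached 5000 and 88 (0.387%) reached 10000. Signals of different probe sets depend on their probes as well as on the transcript, so a high signal is reported as such and is not a molar amount.

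**Figure D1:**
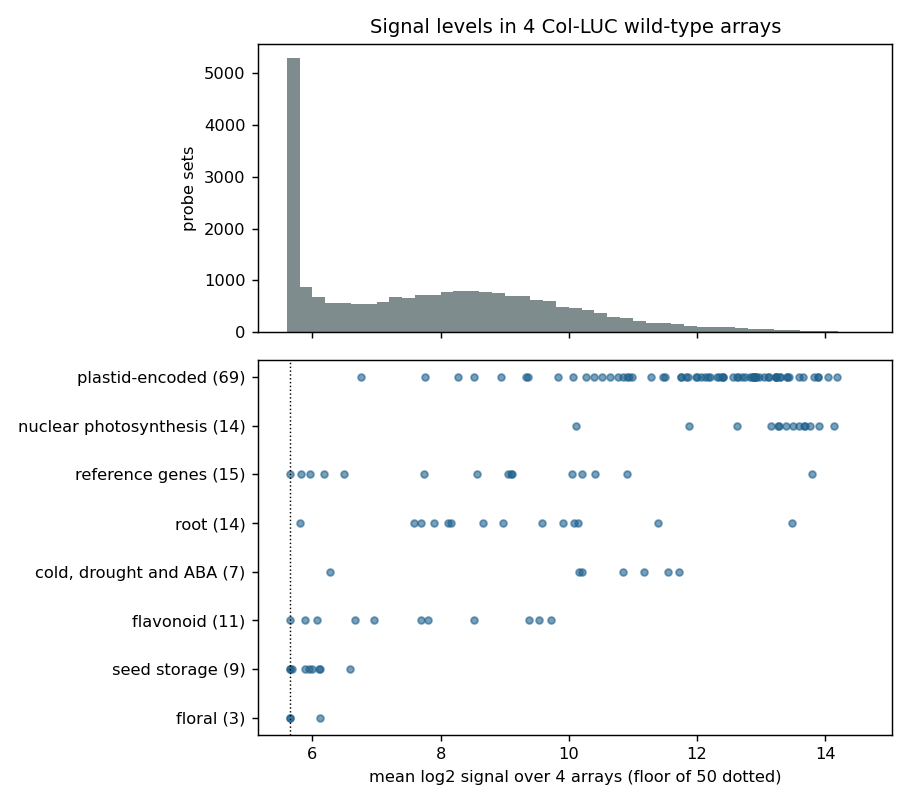
The upper panel counts probe sets by mean log2 signal over 4 arrays, and the lower panel marks the mean log2 signal of each measured member of 8 gene lists, with the number of members in brackets. Plastid-encoded and nuclear photosynthesis genes lie mostly at the upper end, while seed storage and floral genes lie at or near the floor of 50.

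Photosynthesis genes made up most of the genes with the highest signals. Among the 20 genes with the highest mean log2 signal, 7 are encoded in the plastid. The highest was atpB, the beta subunit of the plastid ATP synthase, with signals of 20108.7, 19257.3, 17015.2 and 18067.1 on Col-LUC 1 to 4. Next came LHCB4.1, a CP29 antenna protein of photosystem II, with signals of 15260.8, 20155.4, 18374.3 and 18951.9. The others of the plastid genome were psaB of photosystem I, atpE of the ATP synthase, psbM of photosystem II, petB of the cytochrome b6f complex, rpl16 of the ribosome and ndhI of the NADH dehydrogenase-like complex. Nuclear members were RCA, the activase of Rubisco, PSAE-1, PSBY, LHCB4.2, the ATP synthase subunit ATPC1 and AT4G01150 (CURT1A), which curves thylakoid membranes. The set also held GAPC2, a cytosolic glycolytic enzyme, SAMDC, which supplies polyamine synthesis, the peroxidase PRXR1, and AT5G20290, AT3G60245 and AT2G26500. SDs in the set lay between 0.025 for ndhI and 0.27 for PSAE-1, so the arrays differed by at most 1.52 times for any of the 20. Of the 100 probe sets with the highest means, 27 had 1 gene, 5 several and 68 none assigned, so the 20 are those that could be named. PRK, the phosphoribulokinase of the Calvin cycle, lay just outside the set at a mean log2 signal of 13.49, against 13.57 for its last member.

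Plastid-encoded genes, listed by chromosome after the values were seen, were measured by 69 one-gene probe sets, and none was silent. The median SD was 0.20, and 13 of the 69 had an SD of at most 0.1, a spread that 9.5% of all probe sets above the filter showed. The filter kept the 15024 probe sets that reached a signal of 100 on 2 or more of the 4 arrays, and their median SD was 0.24. The 9.5% is not matched for level, since the plastid genes had a median signal of 5445.8. Of the probe sets with mean signals of 5000 and above, 20.7% had an SD of at most 0.1, and the median SD was 0.17. No plastid gene had an SD of 1 or more. The 15 photosystem II genes stood lowest on Col-LUC 1 in 12 cases, where 31.3% of all probe sets above the filter did so, with a median deviation of -0.28 from their own mean. For psbA, the D1 reaction centre protein, the signals were 3746.3, 6830.8, 5130.7 and 6698.8. The 4 genes of the plastid RNA polymerase went the other way, with a median deviation of 0.38 on Col-LUC 1. Of the 4, 3 were highest there, against 28.3% of all probe sets above the filter. The polymerase subunit rpoA had 9854.6 on Col-LUC 1 against 5390.3, 5631.2 and 5413.1 on the others. The 15 ribosomal protein genes were lowest on Col-LUC 2 in 9 cases, against 25.1% of all probe sets above the filter. The least steady plastid gene was ndhF of the NADH dehydrogenase-like complex, at 131.3, 54.5, 135.2 and 140.7.

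Nuclear photosynthesis genes were measured in 14 of 76 listed cases, all above the filter. RCA was nearly constant, at 15664.3, 15515.7, 14781.5 and 15175.6, with an SD of 0.037. In 9 of the 14 genes both Col-LUC 2 and Col-LUC 4 lay above both other arrays, against 24.9% of all probe sets above the filter. Without Col-LUC 2, 10 of the 14 were highest on Col-LUC 4, a count with no share over all probe sets beside it. One of these was HPR, the hydroxypyruvate reductase of photorespiration, with 7422.1, 10485.1, 7821.2 and 11416.5. The exception in spread was LHCB4.3, a CP29 variant, whose signals were 3702.5, 461.1, 745.8 and 1167.5. Its SD of 1.29 compares with 0.17 for LHCB4.1 and 0.25 for LHCB4.2, and LHCB4.3 stood highest on Col-LUC 1 where both of its relatives stood lowest. The median SD of the 14 genes was 0.20.

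Genes of other stages had low signals. None of 9 measured seed storage genes passed the filter, which 66.1% of all probe sets did. Silent were 2 of the 9, close to the share of 21.9% among all probe sets matched to 1 gene. The oleosin OLEO3 had 53.2, 40.2, 49.0 and 50.9, and the vicilin-like PAP85 had 31.7, 84.8, 63.0 and 62.7. Single arrays still departed from this: M17, a late embryogenesis gene, had 175.9 on Col-LUC 2 against 1.8 to 51.7 elsewhere, and AT4G36700 had 539.9 on Col-LUC 1 against 41.2 to 57.0. Of 3 genes in the floral list SPL, a regulator of sporocyte formation, did not exceed 6.7. CLV3, of the same list, is the stem cell ligand of the shoot meristem, which a seedling also has. It did not exceed 8.3. INO, an ovule gene, had 57.9, 53.4, 57.3 and 129.4. The pollen genes SWEET8 and INP1 did not exceed 61.0 on any array. Histone genes held both kinds of level: HTB2, a histone H2B, had 792.3, 738.0, 767.8 and 886.0, while MGH3, the histone H3 of male gametes, did not exceed 6.6.

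The spread between arrays was small for most genes and wide for a few. The median ratio of the highest to the lowest array was 1.445 over the probe sets above the filter, and 95% had an SD of at most 0.74. An SD of 1 or more, the size of a typical 2-fold departure, was found for 308 probe sets (2.05%). The SD shrank with level: its median was 0.29 for mean signals of 100 to 200 and 0.17 at 5000 and above, where none of 502 probe sets reached 1. Spiked-in transcripts of bacterial bio genes and of the phage gene cre, added to each hybridisation, were measured by 18 control probe sets. These had a median SD of 0.17 and a range of 0.035 to 0.41, and several of them measure the same transcript. An SD from 4 arrays is itself imprecise, and 67 of the 308 had at least 1 array under the floor.

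**Figure D2:**
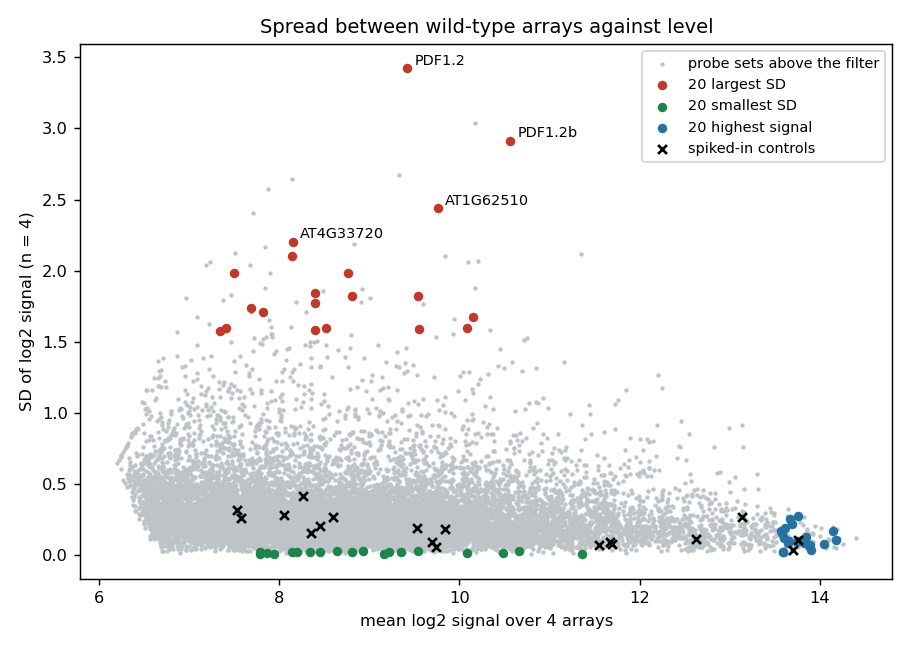
Each grey point is a probe set above the filter, with its mean log2 signal on the horizontal axis and its SD over 4 arrays on the vertical axis. The 20 genes of largest SD (red) range from 1.58 to 3.42, those of smallest SD (green) from 0.011 to 0.029, and the 20 of highest signal (blue) reach at most 0.27, within the range of the spiked-in controls (crosses).

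The wide spread followed pairs of arrays. Of the 308 probe sets, 134 (43.5%) had Col-LUC 1 and 3 above the other arrays and 102 (33.1%) had Col-LUC 2 and 4 above, while each other pairing accounted for 13 to 20. Among all probe sets above the filter these pairings held 25.6% and 24.9%. Col-LUC 2 and 4 were also the closest pair, with 403 probe sets at least 2-fold apart, and Col-LUC 1 and 4 the most distant, with 1389. Col-LUC 1 was the highest array for 130 of the 308, or 42.2%, where it was highest for 28.3% of all probe sets above the filter.

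The most variable gene was PDF1.2, a plant defensin of the jasmonate and ethylene response. Its signals were 7653.2, 48.4, 3214.0 and 178.4 on Col-LUC 1 to 4, an SD of 3.42 and at least a 153-fold range, since Col-LUC 2 lay under the floor. Col-LUC 1 and 3 lay above Col-LUC 2 and 4, as in 25.6% of all probe sets above the filter. PDF1.2b, whose probe set can also bind close relatives, followed the same order at 11709.8, 130.6, 4976.9 and 681.6. Without Col-LUC 2 the SDs were 2.84 and 2.11.

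Other defensin and thionin genes differed less between arrays. Of 15 measured by their PDF, LCR or THI symbols, a list drawn up after the values were seen, 8 passed the filter and 5 were silent, including THI2.1. The filter was passed by 66.1% of all probe sets, and 21.9% of those matched to 1 gene were silent. Col-LUC 1 and 3 lay above the other arrays in 5 of the 8, PDF1.2 and PDF1.2b included, against 25.6% of all probe sets above the filter. PDF2.1 went another way, with 163.6, 476.7, 180.4 and 64.7. LCR68 had the order of the pairs at a smaller spread, at 6078.4, 4099.8, 4230.6 and 3723.4, and LCR69, with the same pair on top, was highest on Col-LUC 3, at 12438.3 against 4650.7 to 7337.9, where 24.6% of all probe sets above the filter were highest. MYC3 and MYC4, transcription factors of jasmonate signalling, were among the steady genes, with SDs of 0.070 and 0.059.

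The remaining genes of the 20 with the largest SD fell into both pairings. In 10 of the 20 Col-LUC 2 and 4 lay above Col-LUC 1 and 3, and in 8 the reverse held. AT1G62510 had 165.2, 3163.8, 250.4 and 4337.8. SAG29, also named SWEET15, a sugar transporter of senescing leaves, had 446.3, 312.2, 64.9 and 1434.8 and belonged to neither pairing. AT4G33720 had 347.2, 7.6, 1977.2 and 188.6 and was highest on Col-LUC 3 and under the floor on Col-LUC 2. The set also held AT3G28270, AT1G13650, AT5G55450, AT2G05540, AT4G33550, AT1G43910, AT2G43620, AT2G29300, AT3G28220, AT2G03310 and AT4G16880, with SDs of 1.58 and above. All 20 kept an SD of at least 1 without Col-LUC 2 (1.39 to 2.84), and 14 did so without Col-LUC 1, where the lowest was 0.59. AT5G37990 lay just outside the set with an SD of 1.53.

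**Figure D3:**
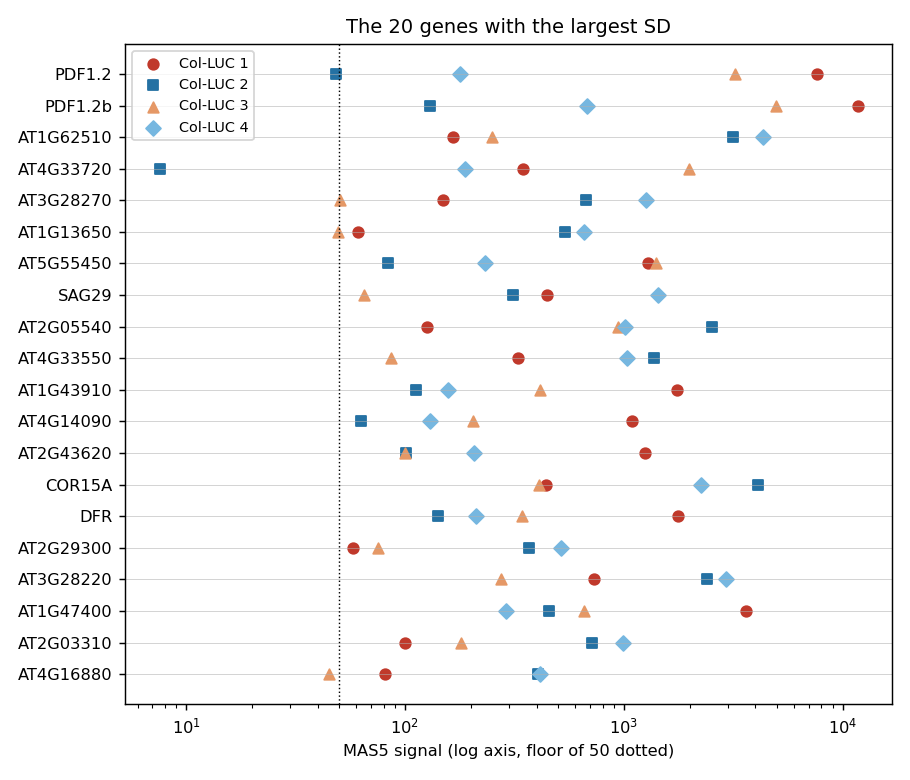
Signal of the 20 genes with the largest SD on each of the 4 arrays, on a log axis with the floor of 50 dotted. In 10 genes Col-LUC 2 and 4 (blue shades) lie to the right of Col-LUC 1 and 3 (red shades), and in 8, led by PDF1.2, the order is reversed.

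Anthocyanin and flavonol genes were highest on Col-LUC 1. Of 11 measured members of the flavonoid list 7 passed the filter, and all 7 were highest on Col-LUC 1, against the 28.3% given above. In 6 of the 7 both Col-LUC 1 and Col-LUC 3 lay above the other arrays, against 25.6% of all probe sets above the filter. DFR, the dihydroflavonol reductase of anthocyanin synthesis, had 1762.3, 141.1, 342.5 and 210.5. AT4G14090, of the same list, had 1085.5, 63.2, 204.1 and 130.4. The general flavonoid gene CHIL, a chalcone isomerase relative, differed less, at 1654.7, 457.9, 828.7 and 811.0. The flavonol glycosyltransferase UGT78D1 varied least of the 7, at 1019.3, 581.2, 673.1 and 503.1. BAN, an enzyme of seed coat tannin, did not exceed 11.8. The median deviation of the 7 on Col-LUC 1 was 1.46, and 4 of the 7 had an SD of 1 or more. The 7 were highest on Col-LUC 1 without Col-LUC 2 as well, and without Col-LUC 1 their median SD was 0.48 in place of 1.16.

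Nutrient genes stood highest on the same array. All 5 iron deficiency genes above the filter were highest on Col-LUC 1, where 28.3% of all probe sets above the filter were, with a median deviation of 0.98. In 4 of the 5 both Col-LUC 1 and Col-LUC 3 lay above the other arrays, against 25.6% of all probe sets above the filter. AT1G47400 had 3636.4, 454.8, 657.4 and 290.9, and AT5G05250 had 1538.0, 428.7, 1198.8 and 214.6. The regulator PYE, a transcription factor of the iron response, varied little, at 444.0, 403.7, 365.9 and 326.9. ILR3, bHLH104 and bHLH34, related factors of iron homeostasis, had SDs of 0.22, 0.17 and 0.065 and were not highest on Col-LUC 1. The 4 nitrate and phosphate genes were also all highest on Col-LUC 1, against the same 28.3%, led in spread by AT1G13750 at 693.0, 280.8, 396.9 and 241.2. Col-LUC 1 and 3 lay above the other arrays in 3 of the 4, against the same 25.6%.

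Root genes were highest on Col-LUC 1 and lowest on Col-LUC 4. Of 13 root genes above the filter, 11 were highest on Col-LUC 1, where 28.3% of all probe sets above the filter were highest. On Col-LUC 4, 10 of the 13 were lowest, against 23.2% of all probe sets above the filter. Their median SD was 0.71, beside 0.20 for the nuclear photosynthesis genes. The root hair expansin EXPA7 had 291.0, 252.5, 194.3 and 96.4, and EXPA18 had 397.4, 209.1, 248.8 and 156.0. The cell wall glycoprotein HRGP1 had 1934.7, 921.7, 1258.8 and 716.7. Its probe set and those of AT1G23720, AT4G08410 and AT5G06630 can also bind close relatives, so the 13 may not be separate measurements. The exceptions were PYK10, the beta-glucosidase of root ER bodies, at 11968.5, 13975.6, 9850.7 and 10221.0, and the jacalin-related lectin JAL33, which were both highest on Col-LUC 2. Col-LUC 1 was highest for all 13 when Col-LUC 2 was left out. On all 4 arrays, Col-LUC 1 and 3 lay above the other arrays in 8 of the 13, against 25.6% of all probe sets above the filter.

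Cold and drought genes were highest on Col-LUC 2. All 6 members above the filter, of 7 measured, had their highest signal there, against 22.6% of all probe sets above the filter. COR15A, which protects the chloroplast during freezing, had 443.4, 4117.5, 411.3 and 2250.4. COR15B had 397.9, 3024.7, 1273.5 and 1268.0. The dehydrins differed less: COR47 had 2489.6, 5269.9, 3246.3 and 2982.2, and LTI30 had 1702.9, 2822.1, 1367.3 and 1715.9. The median deviation on Col-LUC 2 was 0.79. The 25S control given above was highest on the same array, and its part in these values was not tested. Without Col-LUC 2 the median SD of the 6 genes was 0.26 in place of 0.57, and COR15A had an SD of 1.39.

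Because of the header comment on Col-LUC 2, a further list of ABA-induced genes was drawn up after the values were seen. Of 12 measured members 9 passed the filter, 3 highest on Col-LUC 2 and 6 on Col-LUC 4. Over all probe sets above the filter, 22.6% were highest on Col-LUC 2 and 24.5% on Col-LUC 4. Col-LUC 1 was lowest in 4 of the 9 and Col-LUC 3 in 5, against 31.3% and 20.3% of all probe sets above the filter. Without Col-LUC 2, 7 of the 9 were highest on Col-LUC 4, again with no share over all probe sets. The median deviation was -0.53, 0.63, -0.86 and 1.13 on Col-LUC 1 to 4. The ubiquitin ligase gene PUB19 had 113.9, 195.4, 90.6 and 359.6, AT1G73480 had 491.4, 1764.2, 490.2 and 2657.7, and LEA4-5, a late embryogenesis protein, had 30.1, 123.7, 32.0 and 132.9. Col-LUC 2 and 4 were both above Col-LUC 1 and 3 in 6 of 9 genes, against 24.9% of all probe sets above the filter. HIS1-3, a linker histone known from drought, had the same pair of arrays on top, at 128.5, 554.1, 125.8 and 369.1. COR47 is in both lists. Whether an ABA treatment had a part in these levels was not tested, since 1 array has the comment and the header of Col-LUC 4 is empty.

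**Figure D4:**
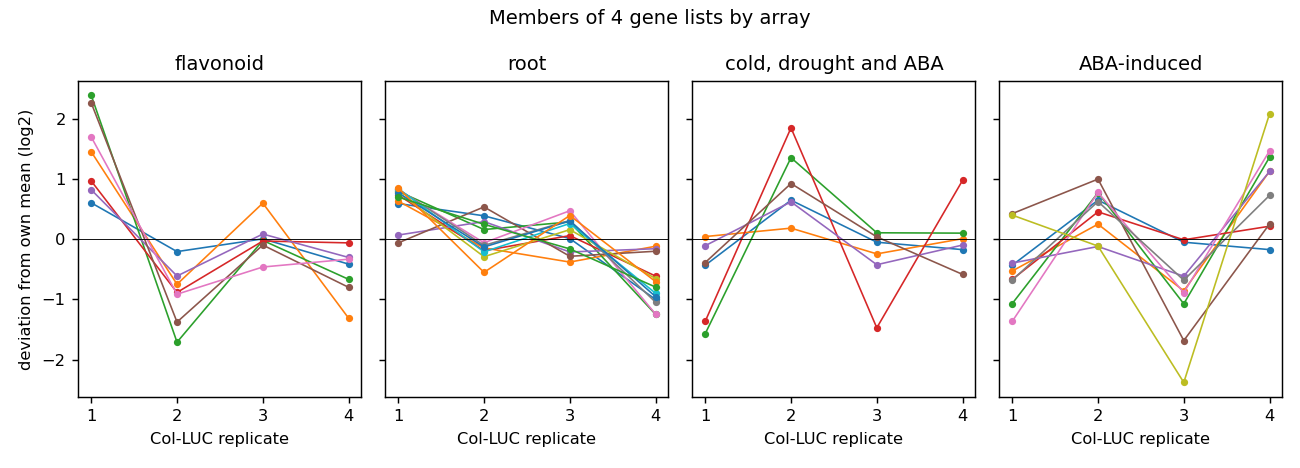
Deviation of each gene above the filter from its own 4-array mean (log2), by replicate, for the flavonoid, root, cold, drought and ABA, and ABA-induced lists, where lines join the points of 1 gene and imply no order of replicates. All 7 flavonoid genes peak on Col-LUC 1, 10 of 13 root genes are lowest on Col-LUC 4, all 6 cold and drought genes peak on Col-LUC 2, and 6 of 9 ABA-induced genes peak on Col-LUC 4.

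Sugar starvation genes, which rise when carbon is short, were low on Col-LUC 1. Of 13 measured, all above the filter, 9 were lowest there, against 31.3% of all probe sets above the filter, and 8 were highest on Col-LUC 2, against 22.6%. Without Col-LUC 2, 7 of the 13 were highest on Col-LUC 4, and no share over all probe sets was taken for this count. AT2G05540 had 126.7, 2543.5, 939.6 and 1017.7, and AT3G15450 had 1287.8, 4614.7, 2641.0 and 1453.6. DPE1, an enzyme of starch breakdown, had 643.2, 1431.2, 979.0 and 979.8, and AKINBETA1, a subunit of the SnRK1 kinase, had 421.5, 939.6, 823.8 and 670.6. AT1G68440 went against the list, at 1095.9, 426.2, 817.9 and 426.3. The clock gene GI, which cycles through the day, had 341.2, 1636.4, 490.7 and 870.2, with both Col-LUC 2 and Col-LUC 4 above the others.

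Early touch and wound genes and salicylate defence genes were represented by few members. STZ, a zinc finger repressor of stress responses, had 564.8, 113.1, 135.9 and 100.7. Of 4 touch and wound genes above the filter 3 were highest on Col-LUC 1, against 28.3% of all probe sets above the filter. In the defence list AT4G12490 had 2987.2, 278.4, 1349.8 and 473.5 and AT5G64120 had 1833.2, 364.3, 766.0 and 318.6, with Col-LUC 1 and 3 high and Col-LUC 2 and 4 low in both, as for PDF1.2. SAG101, a partner of the defence regulator EDS1, had 136.5, 77.9, 174.3 and 63.0 and the same 2 arrays on top.

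**Figure D5:**
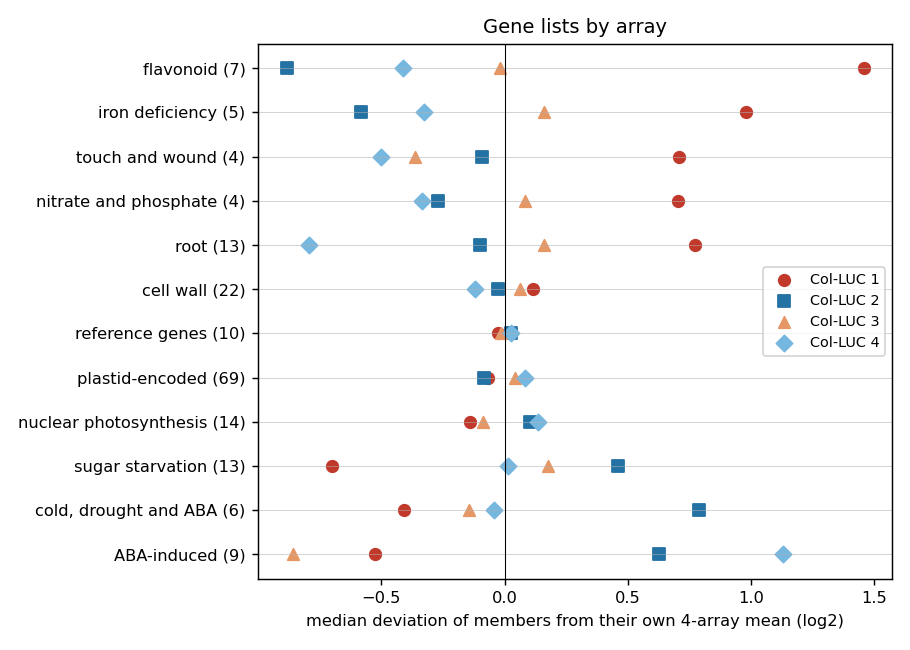
Median deviation of list members above the filter (number in brackets) from their own 4-array mean, in log2, for each array. The flavonoid list reaches 1.46 on Col-LUC 1 and the ABA-induced list 1.13 on Col-LUC 4, while the medians of the reference genes lie between -0.025 and 0.028 on all 4 arrays.

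The steadiest genes held their signal to within a few percent. The 20 genes with the smallest SD among those that reached a signal of 200 on all 4 arrays had SDs of 0.011 to 0.029. SPR1, a microtubule-associated protein that keeps growth straight, had 2600.6, 2610.8, 2630.7 and 2646.2. USP, a pyrophosphorylase of sugar nucleotides, had 737.5, 762.8, 729.0 and 737.9. ndhI of the plastid had 12099.9, 12243.3, 12614.4 and 12324.1 and was the only gene also among the 20 of highest signal. The others were AT1G67620, AT2G40570, AT4G29260, AT5G52430, AT5G06660, AT2G07360, AT2G41960, AT4G01395, AT3G22980, AT2G40650, AT5G11350, AT5G44450, AT4G37880, AT2G41705, AT2G47410, AT3G01560 and AT5G10160. AT3G15610 lay just outside at 0.030. With 4 arrays such an order is loose: only 3 to 6 of the 20 remained in the set when 1 array was left out.

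Genes in common use as references for expression studies formed a list of their own. Of 15 measured, 10 passed the filter, with a median SD of 0.10, and 4 had an SD of at most 0.1, against the 9.5% given above. HBT, a subunit of the anaphase-promoting complex, had 370.1, 388.0, 372.0 and 386.4, and AT2G28390 had 521.7, 508.4, 547.6 and 537.7. AT2G32170 and AT5G46630 had SDs of 0.079 and 0.090. PEX4, also named UBC21, had 1087.9, 1194.8, 1285.1 and 1142.9, and GAPC2 had 15320.5, 13046.0, 14967.0 and 13728.7. AT4G26410 and AT4G34270 had SDs of 0.14 each. AT5G15710, at 0.21, and AT4G33380, at 0.23, were the least steady of the 10. AT1G47770, AT3G32260, AT4G38070, AT5G12240 and AT5G55840 did not exceed 97.0 on any array, and AT4G38070 was silent. The transcription factor ZAP1 (WRKY1), from the WRKY list, had an SD of 0.030, below that of each of the 10 reference genes.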

How the data were processed

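Seedling RNA was hybridised to 1-colour ATH1 arrays. The deposited values are signal intensities, 1 per probe set, made by the authors in MAS5 (version not given) with global scaling to 500, per the labels. Here, 64 control probe sets were left out, signals under 50 were set to 50, and means and SDs were taken on the log2 scale over the 4 Col-LUC arrays. The spread was described for probe sets that reached 100 on 2 or more arrays. Every array pair differed in at least 22687 values. With 1 group no comparison was tested and there is no p-value, Dixon's test for single arrays apart, and 4 arrays leave each SD imprecise. The SD routine was tested on simulated data.

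Genes were named from probe sets with 1 gene in the platform table (13513 of 22746, with 503 for several and 8730 for none), of which 13436 matched RefSeq's genes for TAIR10.1. A gene with several probe sets was represented by the highest mean. The rule for named genes took the 20 highest, 20 most variable and 20 steadiest genes (the last with 200 or more on all 4 arrays), all measured reference genes and up to 4 members of each list. Other members named were chosen after their values were seen. The members and the 47 gene lists were chosen with earlier results of these data known, and 11 lists had no measured member. The lists of defensins, mitochondrial genes, tubulins and aquaporins, built by name patterns, caught unrelated genes and are not used. Alternatives covered the floor, the filter, the scaling, each array left out and SDs moderated by limma 3.58.1 in R 4.3.3. Other steps used Python 3.11.15 with pandas 2.3.3. Dixon's test was applied to named genes with at most 1 array under the floor. Promoter words were not analysed here, and the lists not named in the text are not reported here.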

Additional observations from a re-analysis of the deposited data

Results flagged for a closer look

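In a group of 4 arrays, Dixon's test compares the gap between the most extreme array and its nearest neighbour with the whole range. Of 128 named genes with at most 1 array under the floor, 6 had a gap above Dixon's 95% critical value. Chance alone gives about 1 in 20, or 6.4 of the 128, so the 6 are no more than chance gives. For rpoA the signal of 9854.6 on Col-LUC 1 stood apart, and for ndhF the 54.5 on Col-LUC 2, both plastid genes. Among genes near the floor, AT4G36700 stood apart at 539.9 on Col-LUC 1 and INO at 129.4 on Col-LUC 4. In 2 of the steadiest genes the same test picked out differences of a few percent, AT4G01395 at 607.0 on Col-LUC 1 and AT2G40650 at 287.1 on Col-LUC 2.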

How the results depend on the processing

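No paired analysis was possible because only 1 group was described. The median SD over all probe sets moved by less than 1.5 times under each alternative run. The list medians moved by less than the list's own median SD. All 472 mean log2 signals of named genes moved by no more than their SD. With 1 array left out, neither a gene's mean nor its deviation on another array can move by more than its SD. Those runs could therefore not fail for the means and could hardly fail for the list medians. Without Col-LUC 1 the median of the ABA-induced list on Col-LUC 2 fell from 0.63 to 0.32. The number of silent probe sets followed the floor, at 1542 with a floor of 20 and 6902 with a floor of 100, and lay between 4163 and 4327 with 1 array left out. The count with an SD of at least 1 was 162 with the filter on all 4 arrays and 88 with SDs moderated by limma, and ranged from 221 without Col-LUC 1 to 344, with 289 without Col-LUC 2. The count with an SD of at most 0.1 was 6058 with no filter, where values at the floor enter, 0 with moderated SDs, and 2113 to 2687 with 1 array left out. Of the 20 genes with the largest SD, 10 remained with the filter on all 4 arrays and 12 to 15 with 1 array left out. Of the 20 with the smallest SD, 12 remained after quantile normalization, 1 with moderated SDs and 3 to 6 with 1 array left out. The cause was not tested. With 1 array left out, the median SD ranged from 0.201 to 0.231. The deviation of the flavonoid list on Col-LUC 1 then ranged from 1.02 to 1.55, of the cold, drought and ABA list on Col-LUC 2 from 0.66 to 0.79, of the ABA-induced list on Col-LUC 2 from 0.32 to 0.63 and of the root list on Col-LUC 4 from -0.87 to -0.56. The promoter word search was not run, since no promoter sequences were at hand. Low signals near the floor limit what can be said of silent genes.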

Other observations

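Cell wall genes varied in both directions. Of 35 measured genes, mostly of expansins, xyloglucan and pectin, 22 passed the filter, which 66.1% of all probe sets did. Their median SD was 0.59, beside 0.24 for all probe sets above the filter. The 6 silent ones, EXPA21 and XTH29 among them, are near the share of 21.9% among all probe sets matched to 1 gene. EXPA8, an expansin that loosens walls, had 381.6, 3612.0, 1691.7 and 3418.3 on Col-LUC 1 to 4. EXPB3 had 1209.7, 2943.1, 1601.4 and 2934.5, with the same pair of arrays on top. ATPMEPCRB, a pectin methylesterase, went the other way at 889.2, 73.7, 220.5 and 137.7. The steadiest was EXGT-A3, a xyloglucan endotransglycosylase, at 2533.6, 2136.7, 2446.9 and 1939.4.

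Of 24 measured cytochrome P450 genes, most of them of the CYP71B family, 8 were silent and 12 passed the filter. Silent were 21.9% of all probe sets matched to 1 gene, and 66.1% of all probe sets passed. CYP71B23 had 1023.6, 143.2, 208.8 and 118.1 and CYP71B26 had 782.5, 1486.4, 508.8 and 2071.4, so members of 1 family stood high on different arrays. Glutathione transferases had a median SD of 0.33 over 11 genes, above the 0.24 of all probe sets over the filter, from GSTL3 at 3572.2, 3193.2, 3271.7 and 3399.2 to GSTU25 at 777.6, 169.3, 235.7 and 150.6. The peroxidase Prx37 had 966.7, 170.1, 987.0 and 200.4. Glucosinolate genes differed little: BCAT4, an enzyme of methionine chain elongation, had 4578.3, 4741.0, 6242.1 and 4249.0, and UGT74B1 had an SD of 0.16.

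Among 2596 pairs of adjacent genes that both passed the filter, 4 pairs had an SD of at least 1 in both members. These were COR15B and COR15A, AT1G01240 and AT1G01250, AT1G62500 and AT1G62510, and CYP71B22 and CYP71B23. Of 88 neighbours of a gene with such an SD, 8 (9.09%) had it too, beside 132 of all 8023 genes (1.65%). The 8 are the members of the 4 pairs, each pair counted from both sides. Only 2 of the 4 pairs had the same highest array. AT1G62500 had 500.5, 227.5, 998.7 and 236.6, where AT1G62510 had 165.2, 3163.8, 250.4 and 4337.8. CYP71B22 had 149.6, 100.7, 458.0 and 104.7 and so was highest on another array than CYP71B23.

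Some genes were measured by a second probe set. In 85 genes both probe sets passed the filter. In 4 of these the first had an SD of at least 0.5, and both probe sets were then highest on the same array in all 4 and lowest on the same array in 2, with a median SD of 0.65 for the second. Over all 85 genes, 39 had the same highest array.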
